A study of Mus musculus with 12 samples.

Results

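Astrocytes and microglia were compared at baseline, in the hippocampus of mice that had received only the control vector. The libraries were chosen by their labels, as the AAV-GFP libraries of both sorted fractions, and they made up 6 of the 12 libraries of the series. They were 3 ACSA-2 libraries (DDBM303, DDBM306 and DDBM307) and 3 CD11b libraries (DDBM316, DDBM317 and DDBM319), and values are always listed in that order. Male C57Bl6/J mice aged 2 months had been injected on both sides of CA1 with AAV2/9 in which the astrocyte-selective promoter GfaABC1D drove GFP, and the hippocampus was taken at 4 months. Both fractions thus came from injected, GFP-expressing tissue, and no uninjected tissue was sampled. Hippocampi were dissociated with enzymes, myelin was removed, astrocytes were retained on columns with beads against ACSA-2, a surface epitope of the protein encoded by Atp1b2, and microglia were retained from the flow-through with beads against CD11b, the integrin encoded by Itgam.

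Astrocytes clear glutamate and potassium from the neuropil, couple through gap junctions, cover vessels with endfeet and supply neurons with lactate, glutamine and lipoproteins. Microglia are the resident macrophages of brain tissue, derive from the yolk sac, need the transcription factor PU.1 and the receptor CSF1R, and sense damage and microbes through purinergic, Toll-like, Fc and complement receptors. The comparison asks which genes and functions mark each fraction, as RNA of a sorted, bulk suspension.

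The total count on genes was 34093477 to 41186183 per ACSA-2 library and 39357766 to 45593454 per CD11b library, and 25442 gene identifiers stood in both tables. Expression is given in CPM, the gene counts of a library divided by its TMM-adjusted total and brought to 1 scale for all libraries. The 16980 genes kept by edgeR's filter on low counts were tested with its quasi-likelihood test, and a gene was called when its Benjamini-Hochberg adjusted p was under 0.05 and its absolute log2 fold change over 0.32. Each fit was repeated 6 times with 1 library left out, and a call that did not hold in every one of them is given with the number of fits in which it held, as in "2 of 6 fits". The log2 fold change is ACSA-2 minus CD11b, so it is negative for genes higher in CD11b, and errors of it are SE. The chi-square per degree of freedom between libraries of a fraction was 55.3 to 108 in ACSA-2, and no pair lay within sampling noise. Labels number the animals of each fraction separately and do not say whether fractions came from the same animals, so p-values measure only the spread between these libraries. The 2 fractions were also deposited as separate tables, and cell type and table cannot be told apart.

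DDBM316 and DDBM317 stood apart from DDBM319 among the CD11b libraries, with a chi-square per degree of freedom of 1360 and 846 against DDBM319 and of 158 between themselves. Ttr, the thyroxine carrier secreted by the choroid plexus, was the most abundant gene of DDBM316 and DDBM317, with 8.05 and 6.41% of all counts, and 10 markers of choroid plexus summed to 108500 and 88500 CPM there, against 174 CPM in DDBM319 and 741 to 919 CPM in the ACSA-2 libraries. None of the 10 markers was at 0 in any ACSA-2 library. The 20 microglial markers moved the other way, with a sum of 17160, 36060 and 125400 CPM in the CD11b libraries. What this split contributes to single results was not tested. Each list below is given also with DDBM319 as the only CD11b library, a fit in which that library is assumed to vary like the ACSA-2 libraries. In bulk RNA, fewer cells of a type and less RNA per cell cannot be told apart.

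At these thresholds 25.8% of tested genes were called, 2162 of them (12.7%) higher in ACSA-2 and 2215 (13%) higher in CD11b. A change of at least 8-fold, with an adjusted p under 0.05, was found for 770 genes higher in ACSA-2 (4.53%) and 950 higher in CD11b (5.59%). The median log2 fold change of all tested genes was -0.09, with quartiles of -1.07 and 0.95, and it was -0.213 instead of -0.0862 with scaling by library totals only. The 3 libraries of one fraction all lay above the 3 of the other in 50.3% of tested genes. Of the called genes, 1595 of the 2162 and 1607 of the 2215 had the same call with DDBM319 alone, in which 2845 genes were called higher in ACSA-2 and 2350 higher in CD11b. Leaving out any 1 of DDBM303, DDBM306, DDBM307 and DDBM317 lowered the counts to between 1036 and 1118 and between 846 and 1162.

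**Figure D1:**
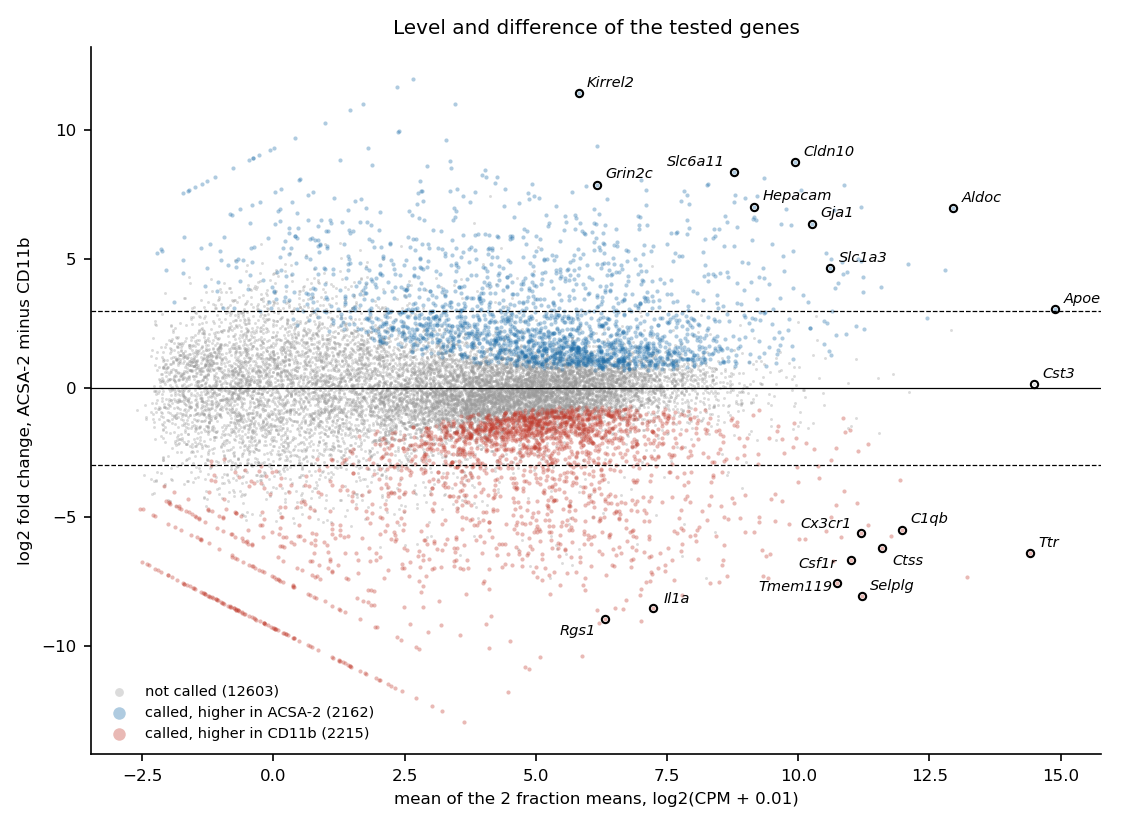
Each point is 1 of the 16980 tested genes, with its mean level in log2(CPM + 0.01) on the x axis and its log2 fold change, ACSA-2 minus CD11b, on the y axis; colours mark the 2162 genes called higher in ACSA-2 and the 2215 called higher in CD11b. Named points show that the abundant genes Apoe and Aldoc lay above 0 and C1qb and Ctss below it, while Cst3 lay near 0.

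The astrocyte markers were concentrated in the ACSA-2 fraction. Apart from Atp1b2, which carries the sort antigen, 16 of 19 markers were called higher in ACSA-2, with a median log2 fold change of 5.75, and with DDBM319 alone all 19 were called, with a median of 6.64. Gja1 (ENSMUSG00000050953, chr10:56377330-56402513 in GRCm38), which encodes the gap junction protein connexin 43, was at 2635, 2322 and 2303 CPM in ACSA-2 against 33.1, 30.1 and 23.7 CPM in CD11b (log2 fold change 6.38 ± 0.35, adjusted p = 0.000264). Aldoc (ENSMUSG00000017390, chr11:78322968-78327781), a glycolytic aldolase, was at 17530, 16060 and 13760 CPM against 153, 151 and 70.5 CPM (6.98 ± 0.54, adjusted p = 0.000583). Both genes were high in each ACSA-2 library and low in each CD11b library, with no overlap. Gfap, the intermediate filament of astrocytes, was at 864, 1132 and 1299 CPM against 21.9, 29.9 and 9.40 CPM (5.75 ± 0.55, adjusted p = 0.00124). Aldh1l1, a folate enzyme used to tag astrocytes, was at 218 to 296 CPM against 51.1, 20.2 and 2.53 CPM (3.39 ± 0.94, adjusted p = 0.0392, 2 of 6 fits). The markers that were not called, Sox9, Atp13a4 and Slc39a12, were also above every CD11b library in each ACSA-2 library. Separation of the fractions, in either direction, was seen in 50.3% of tested genes. Sox9, a transcription factor of the lineage, was at 401, 329 and 616 CPM against 162, 123 and 14.8 CPM (adjusted p = 0.0851). Atp1b2 itself, being fixed by the sort, is no finding and was at 1462 to 1916 CPM against 39.2 to 52.0 CPM.

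The microglial markers showed the converse. Apart from Itgam, which encodes the sort antigen, 18 of 19 markers were called higher in CD11b, with a median log2 fold change of -5.87, and with DDBM319 alone all 19 were called, with a median of -7.05. Tmem119 (ENSMUSG00000054675, chr5:113793729-113800516), a surface protein that sets microglia apart from other macrophages, was at 16.7, 14.9 and 22.4 CPM in ACSA-2 against 908, 1914 and 7442 CPM in CD11b (-7.57 ± 0.98, adjusted p = 0.00379). P2ry12, the ADP receptor that steers microglial processes, was at 27.1, 29.4 and 34.7 CPM against 1009, 1919 and 6700 CPM (-6.72 ± 0.86, adjusted p = 0.00367). Every one of the 20 markers was highest in DDBM319, and for both genes named here the lowest CD11b library still lay far above the highest ACSA-2 library. Csf1r, the receptor for the survival factors CSF1 and IL-34, was at 27.9, 33.7 and 58.9 CPM against 1350, 2591 and 8218 CPM (-6.66 ± 0.88, adjusted p = 0.00401). The exception was Sall1, a transcription factor of microglial identity, at 75.1, 55.4 and 67.1 CPM in ACSA-2 against 81.0, 143 and 539 CPM in CD11b (-1.95 ± 0.68, adjusted p = 0.0772). Itgam itself, which is no finding, was at 0.794 to 3.48 CPM against 24.2 to 112 CPM. Exons of other genes cover 68.7% of its exon bases, so its count is uncertain.

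**Figure D2:**
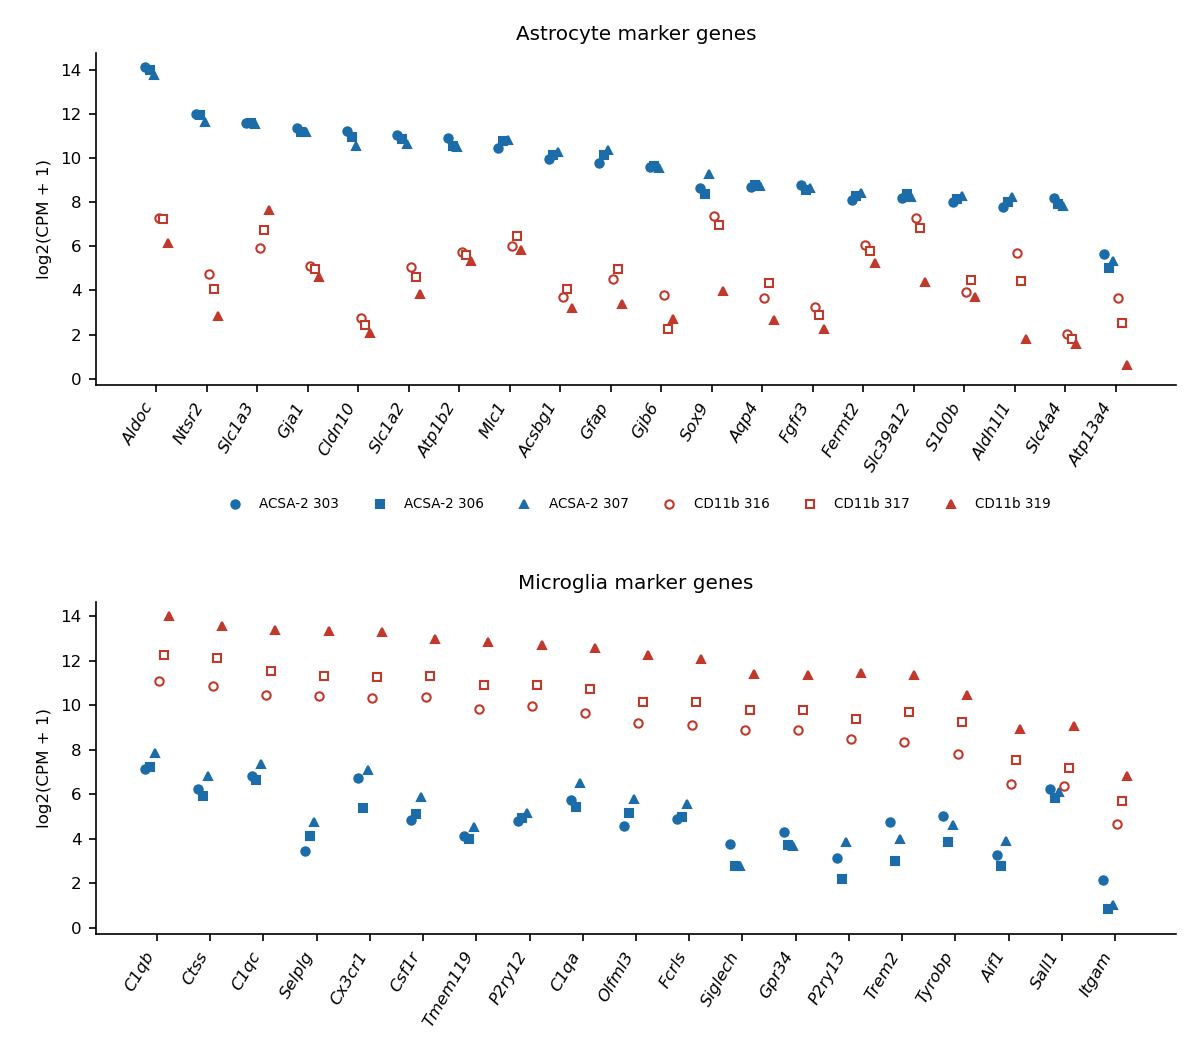
Each point is 1 library, in log2(CPM + 1), for the 20 astrocyte markers and for 19 of the microglial markers, with ACSA-2 and CD11b libraries in separate colours. The ACSA-2 libraries lie above the CD11b libraries for all 20 astrocyte markers and below them for the 19 microglial markers drawn, and DDBM319 is the highest CD11b library for each of the latter.

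Each fraction also held a trace of the other cell's markers. The mean level of an astrocyte marker in CD11b was 2.34% of its level in ACSA-2 (median of the 20, range 0.227 to 31.2%), and by library the median was 2.05, 2.81 and 0.981%. The corresponding median for microglial markers in ACSA-2 was 1.71% (range 0.372 to 25.9%), with 1.61, 1.13 and 1.82% by library. It was 4.24% without DDBM319 and 0.782% with DDBM319 as the only CD11b library, so it rests on that library. The highest share belonged to Sall1 among the microglial markers. These medians include the genes of the sort antigens, Atp1b2 (2.83%) and Itgam (2.84%).

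Genes of the largest change were taken among called genes whose fractions did not overlap, with a mean of at least 50 CPM in the higher fraction. In ACSA-2 they were led by Kirrel2, an adhesion protein of the immunoglobulin superfamily, at 91.6, 122 and 124 CPM against 0.0764, 0 and 0.0266 CPM (11.46 ± 0.72, adjusted p = 0.000313). Ndp, which encodes the Frizzled ligand norrin, was at 172, 133 and 123 CPM against 0.592, 0 and 0 CPM (9.38 ± 1.44, adjusted p = 0.00639). The claudin gene Cldn10 was at 2388, 1975 and 1484 CPM against 5.77, 4.32 and 3.19 CPM (8.78 ± 0.48, adjusted p = 0.000264). Kirrel2 and Ndp were at or near 0 in each CD11b library, and Cldn10 was low but present. The others were Slc6a11 (GABA uptake), Hsd11b1 (glucocorticoid activation), Garem2, Gm266, Omg, Grin2c (an NMDA receptor subunit), Ephb1, Ntsr2 (a neurotensin receptor), Tmem229a, AW047730, Adcy2 and Dbx2, with log2 fold changes of 7.64 to 8.38. The call of Adcy2 held in 2 of 6 fits. Its level in DDBM319 was 0.0799 CPM, against 14.8 and 16.2 CPM in DDBM316 and DDBM317 and 1624 to 2362 CPM in ACSA-2.

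The largest changes in CD11b included Pik3r5, a regulatory subunit of PI3-kinase gamma, which was at 22.3, 41.4 and 102.5 CPM in CD11b and had 3 counts in the ACSA-2 libraries together. Tmem273 likewise had 3 counts in ACSA-2, and it was at 21.1, 44.5 and 109 CPM in CD11b. Rasal3, a Ras GTPase activating protein of blood cells, was at 0.494, 0.0611 and 0.871 CPM against 78.6, 192 and 503 CPM (-9.06 ± 1.19, adjusted p = 0.00401). That the fractions did not overlap was a condition of the choice. The highest CD11b library was DDBM319 for each of these genes. Havcr2, the checkpoint receptor TIM-3, was at 0.183 to 1.03 CPM against 55.5, 118 and 369 CPM (-8.53 ± 1.15, adjusted p = 0.00425). Rgs1, a regulator of chemokine receptor signalling, was at 0.0780, 0.0305 and 0.843 CPM against 106, 192 and 180 CPM (-8.95 ± 1.16, adjusted p = 0.00384), so that DDBM317 and DDBM319 were close. The remainder were Traf3ip3, Upk1b, Rhoh, Parvg, Il1a, Slc16a6, Selplg, Csf3r, Kcnk6 and Abi3, with log2 fold changes of -10.42 to -7.83. The count of Abi3 is uncertain, since other genes cover 75.8% of its exon bases, and the call of Parvg held in 5 of 6 fits.

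The 10 smallest adjusted p-values of genes higher in ACSA-2 belonged to Luzp2, Garem2, Trim9, Etnppl, Igdcc4, Lsamp, Tagln3, Hepacam, Fabp7 and AW047730, all at 0.000237. Etnppl, an ethanolamine-phosphate phospho-lyase, was at 98.8, 95.3 and 87.5 CPM against 1.28, 0.933 and 0.985 CPM, and Lsamp, a neural adhesion protein, at 747, 767 and 624 CPM against 10.1, 9.73 and 9.93 CPM. In CD11b they were Pon3, Ftl1, Stxbp2, Tent5a, Whrn, Ccl4, Ccl3, Sgk1, Junb and Plek. Pon3, a paraoxonase, was at 5.54, 5.59 and 7.10 CPM against 135, 112 and 144 CPM (-4.42 ± 0.27, adjusted p = 0.000298). Ranking by adjusted p favours genes of little spread between libraries. That Pon3 was at a similar level in DDBM316, DDBM317 and DDBM319 is thus no separate finding. Sgk1, a glucocorticoid-induced kinase, was at 14.6, 26.2 and 28.8 CPM against 1025, 929 and 1408 CPM (-5.60 ± 0.43, adjusted p = 0.000579).

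The 10 most abundant genes of each fraction, taken by mean CPM and then compared with each other per kilobase of exon, were partly shared. Apoe, the main lipoprotein of brain, was at 25560 ± 216 CPM per kb (SD, n = 3) in ACSA-2 and 3030 ± 509 in CD11b. It was thus higher in ACSA-2 (54270, 54500 and 55160 CPM against 7365, 6803 and 5263 CPM; log2 fold change 3.08 ± 0.41, adjusted p = 0.00404), and yet among the most abundant genes of both fractions. Cst3, which encodes the cysteine protease inhibitor cystatin C, was at 19120 ± 2575 CPM per kb in ACSA-2 and 17370 ± 13430 in CD11b and was not called (27890, 23040 and 21690 CPM against 7726, 17440 and 40810 CPM; 0.14 ± 0.63, adjusted p = 0.889). Its CD11b libraries lay on both sides of the ACSA-2 libraries, and with DDBM319 alone it was called higher in CD11b (-0.78). Among the 10 of ACSA-2, the next in CPM per kb were Aldoc (4837 ± 583), Glul (4134 ± 1162), Clu (3694 ± 399), Ckb (3352 ± 150) and Cpe (3228 ± 170). They encode aldolase C, glutamine synthetase, clusterin, brain creatine kinase and carboxypeptidase E. Their ranges touch within 1 SD, except that Aldoc lay above Clu, Ckb and Cpe. Clu was not called over the 3 CD11b libraries (11480, 14180 and 12430 CPM against 4418, 3230 and 405 CPM, adjusted p = 0.0801). The 10 of CD11b included the complement gene C1qb (7253 ± 6954 CPM per kb) and the protease genes Ctss (4528 ± 3929) and Ctsd (3069 ± 2379, 4 of 6 fits). The SD there was near the mean and their order cannot be set. Ttr and Enpp2 (1 of 6 fits), the latter encoding autotaxin, reached the same list through DDBM316 and DDBM317 only. Ttr was at 70120, 58830 and 81.0 CPM in CD11b against 476 to 545 CPM in ACSA-2, so it was called higher in CD11b over all libraries (-6.42 ± 1.92, adjusted p = 0.0493, 1 of 6 fits) and higher in ACSA-2 with DDBM319 alone (2.61).

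Genes of astrocyte function were grouped in 9 lists of genes expected in ACSA-2, chosen with earlier results of these data known. They share members with the markers, among them Gja1, Aldoc and Slc1a2. Counts of called members stand against 12.7% of all tested genes higher in ACSA-2 and 13% higher in CD11b. The choice thus favoured positive medians, and that all 9 had a positive median is no separate finding. The list of endfoot, water, potassium and gap junction genes had the largest over the 3 CD11b libraries, with 13 of 16 members called higher in ACSA-2, 1 higher in CD11b and a median log2 fold change of 4.58 (14 and 1 with DDBM319 alone, median 5.08, when 2 other lists had higher medians). The 13 include Atp1b2, which was fixed by the sort. Hepacam, an adhesion protein that anchors MLC1, was at 1262, 1038 and 1104 CPM against 10.4, 7.75 and 7.61 CPM (7.04 ± 0.35, adjusted p = 0.000237). The bicarbonate transporter Slc4a4 was at 289, 240 and 223 CPM against 3.13, 2.52 and 1.94 CPM (6.62 ± 0.33). The inward rectifier Kcnj10 was at 98.5, 90.8 and 70.9 CPM against 2.52, 1.66 and 0.745 CPM (5.71 ± 0.52, adjusted p = 0.00110). The water channel Aqp4, at 414 to 441 CPM against 5.32 to 19.4 CPM, also did not overlap. The exception was Slc12a2, the sodium-potassium-chloride cotransporter, at 17.4, 27.5 and 25.6 CPM in ACSA-2 against 217, 129 and 63.4 CPM in CD11b (-2.54 ± 0.48, adjusted p = 0.0120, 4 of 6 fits). Its CD11b values were higher in DDBM316 and DDBM317 than in DDBM319, as were those of the choroid plexus markers.

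Transmitter uptake and the glutamine and GABA cycles separated the fractions unevenly. Of 16 genes, 9 were called higher in ACSA-2 and 1 in CD11b, with a median of 2.14 (13 and 0 with DDBM319 alone, median 3.79). The GABA transporter Slc6a11 was at 741, 985 and 899 CPM against 3.74, 2.75 and 1.33 CPM (8.38 ± 0.55, adjusted p = 0.000357). Slc1a2, the glutamate transporter GLT-1, was at 2097, 1855 and 1590 CPM against 32.7, 23.4 and 13.4 CPM (6.32 ± 0.48, adjusted p = 0.000572). Slc1a3, the glutamate transporter GLAST, was at 3022, 3028 and 2996 CPM against 60.3, 104 and 198 CPM (4.64 ± 0.53, adjusted p = 0.00245). GLAST differed from the other transporters in being highest in DDBM319 among the CD11b libraries. Glutamine synthetase, Glul, was at 18190, 11750 and 11270 CPM against 437, 581 and 700 CPM (4.58 ± 0.44, adjusted p = 0.00126). Slc7a10, which exchanges serine, was at 652 to 782 CPM in ACSA-2 and at 543, 275 and 3.25 CPM in CD11b, and was called with DDBM319 alone (7.73).

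Lipid supply was described by 2 lists. Of 20 genes of sterol and fatty acid synthesis, 11 were called higher in ACSA-2 and 0 in CD11b, with a median of 1.68 (17 and 0 with DDBM319 alone, median 2.97). Srebf1, the transcription factor of fatty acid synthesis, was at 1356, 1171 and 1407 CPM against 192, 152 and 124 CPM (3.07 ± 0.31, adjusted p = 0.00139). Fasn, its target fatty acid synthase, was at 241, 180 and 267 CPM against 28.3, 20.8 and 20.3 CPM (3.31 ± 0.29, adjusted p = 0.000854). Among 17 genes of lipoproteins and lipid efflux, 7 were called higher in ACSA-2 and 1 in CD11b, with a median of 0.94 (11 and 2 with DDBM319 alone, median 2.27). Lcat, which esterifies cholesterol on lipoproteins, was at 1243, 1331 and 973 CPM against 8.55, 8.49 and 3.41 CPM (7.44 ± 0.53, adjusted p = 0.000489). The fatty acid binding protein gene Fabp7 was at 410 to 544 CPM against 4.09 to 5.54 CPM. The transporter genes of efflux went another way: Abcg1 was higher in CD11b, at 24.7, 16.8 and 20.4 CPM against 93.7, 93.2 and 304 CPM (-2.99 ± 0.54, adjusted p = 0.0105, 5 of 6 fits), and Abca1 was not called, at 292, 492 and 536 CPM against 235, 422 and 815 CPM.

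Of 25 genes of glycolysis, glycogen and lactate, 7 were called higher in ACSA-2 and 2 in CD11b, with a median of 0.48, which is 28.0 and 8% of the list against 12.7 and 13% of all tested genes (13 and 2 with DDBM319 alone, median 1.44). Besides Aldoc, the muscle-type phosphofructokinase Pfkm was at 604, 684 and 752 CPM against 135, 66.6 and 20.9 CPM (3.20 ± 0.66, adjusted p = 0.0155, 2 of 6 fits). Pygb, the brain glycogen phosphorylase, was at 318, 389 and 466 CPM against 103, 79.8 and 55.1 CPM (2.30 ± 0.33, adjusted p = 0.00495). Both genes were thus higher in every ACSA-2 library. In CD11b the inducible hexokinase Hk2 was at 18.6, 31.7 and 87.3 CPM against 3.75, 0.947 and 1.74 CPM in ACSA-2 (-4.41 ± 0.80, adjusted p = 0.0106). Slc16a3, the lactate exporter MCT4, was at 5.58, 14.7 and 45.0 CPM against 1.43, 0.641 and 0.490 CPM (-4.66 ± 0.92, adjusted p = 0.0139, 4 of 6 fits). The constitutive hexokinase Hk1, at 73.9 to 106 CPM against 52.5 to 164 CPM, and the glucose transporter Slc2a1, at 535 to 680 CPM against 364 to 640 CPM, overlapped between the fractions and were not called.

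Of 21 synaptogenic, phagocytic and perisynaptic matrix genes, 13 were called higher in ACSA-2 and 1 in CD11b, with a median of 3.74 (14 and 2 with DDBM319 alone, median 5.26). Bcan, the proteoglycan brevican, was at 1030, 1108 and 1270 CPM against 13.8, 11.9 and 8.46 CPM (6.64 ± 0.37, adjusted p = 0.000264). Sparcl1, the synaptogenic protein hevin, was at 4003, 4801 and 4698 CPM against 308, 373 and 326 CPM (3.75 ± 0.32, adjusted p = 0.000829). Its relative Sparc, which opposes hevin at synapses, was at 1411, 1448 and 1286 CPM against 1997, 3371 and 8423 CPM, not passing the test over the 3 CD11b libraries (-1.73 ± 0.56, adjusted p = 0.0603) and called higher in CD11b with DDBM319 alone (-2.64). Among the thrombospondins, Thbs4 was at 45.5 to 86.1 CPM in ACSA-2 and at 0.560 CPM or less in CD11b (7.38 ± 0.83, adjusted p = 0.00239). Thbs1 was at 0.234, 1.83 and 1.52 CPM against 18.6, 9.92 and 3.91 CPM (-3.17 ± 0.93, adjusted p = 0.0454, 1 of 6 fits). The phagocytic receptors also split: Megf10 was at 16.3 to 29.9 CPM in ACSA-2 and at 0.325, 0.163 and 0 CPM in CD11b (6.97 ± 1.06, adjusted p = 0.00627), whereas Mertk was at 77.7 to 101.9 CPM against 71.7, 134 and 440 CPM and was not called.

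Transcription factors and receptors that pattern the astrocyte lineage followed the marker genes. Of 20 lineage factors, 12 were called higher in ACSA-2 and 0 in CD11b, with a median of 3.14 (18 and 0 with DDBM319 alone, median 4.79). The homeobox gene Dbx2 was at 479, 424 and 453 CPM against 3.27, 2.24 and 1.28 CPM (7.64 ± 0.47, adjusted p = 0.000313), and the Notch effector Hes5 at 104, 97.7 and 117 CPM against 1.22, 1.35 and 0.426 CPM (6.72 ± 0.52, adjusted p = 0.000611). The related Hes1 overlapped between fractions, at 137, 160 and 190 CPM against 365, 294 and 44.1 CPM, and was not called. Of 20 receptors and effectors of developmental signals, 12 were called higher in ACSA-2 and 0 in CD11b, with a median of 2.90 (16 and 1 with DDBM319 alone, median 5.60). They covered hedgehog (Gli3, 79.4 to 118 CPM against 0.187 to 1.09 CPM), Wnt (Fzd9, 152 to 175 against 0.532 to 1.47 CPM), FGF (Fgfr3, 377 to 440 against 3.70 to 8.52 CPM) and Notch (Notch1, 246 to 351 against 24.4 to 65.9 CPM). Smo, the signal transducer of hedgehog, was at 23.3 to 27.0 CPM against 18.3 to 24.6 CPM and was not called.

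Of 17 G protein-coupled receptors of astrocytes, 10 were called higher in ACSA-2 and 1 in CD11b, with a median of 2.80 (12 and 1 with DDBM319 alone, median 4.04). Gpr37l1, an orphan receptor of glia, was at 4067, 5315 and 4546 CPM against 31.5, 40.1 and 34.6 CPM (7.04 ± 0.39, adjusted p = 0.000264). S1pr1, a sphingosine-1-phosphate receptor, was at 3892, 3798 and 3553 CPM against 119, 160 and 224 CPM (4.49 ± 0.39, adjusted p = 0.000837). The adrenergic receptor gene Adra2a was at 15.3, 19.7 and 18.4 CPM in ACSA-2 against 0.267, 1.07 and 3.19 CPM (3.56 ± 0.86, adjusted p = 0.0254, 2 of 6 fits). Adora2b and Adora1, adenosine receptors, were at 84.6 to 120 CPM against 4.90 to 59.5 CPM and at 34.6 to 45.5 CPM against 1.57 to 14.1 CPM, neither of them called over all 3 CD11b libraries. The adenosine receptor gene Adora3 had 0 counts in ACSA-2 and was at 5.37, 14.7 and 54.4 CPM in CD11b, at least 296-fold higher than a floor of 3 counts per library.

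**Figure D3:**
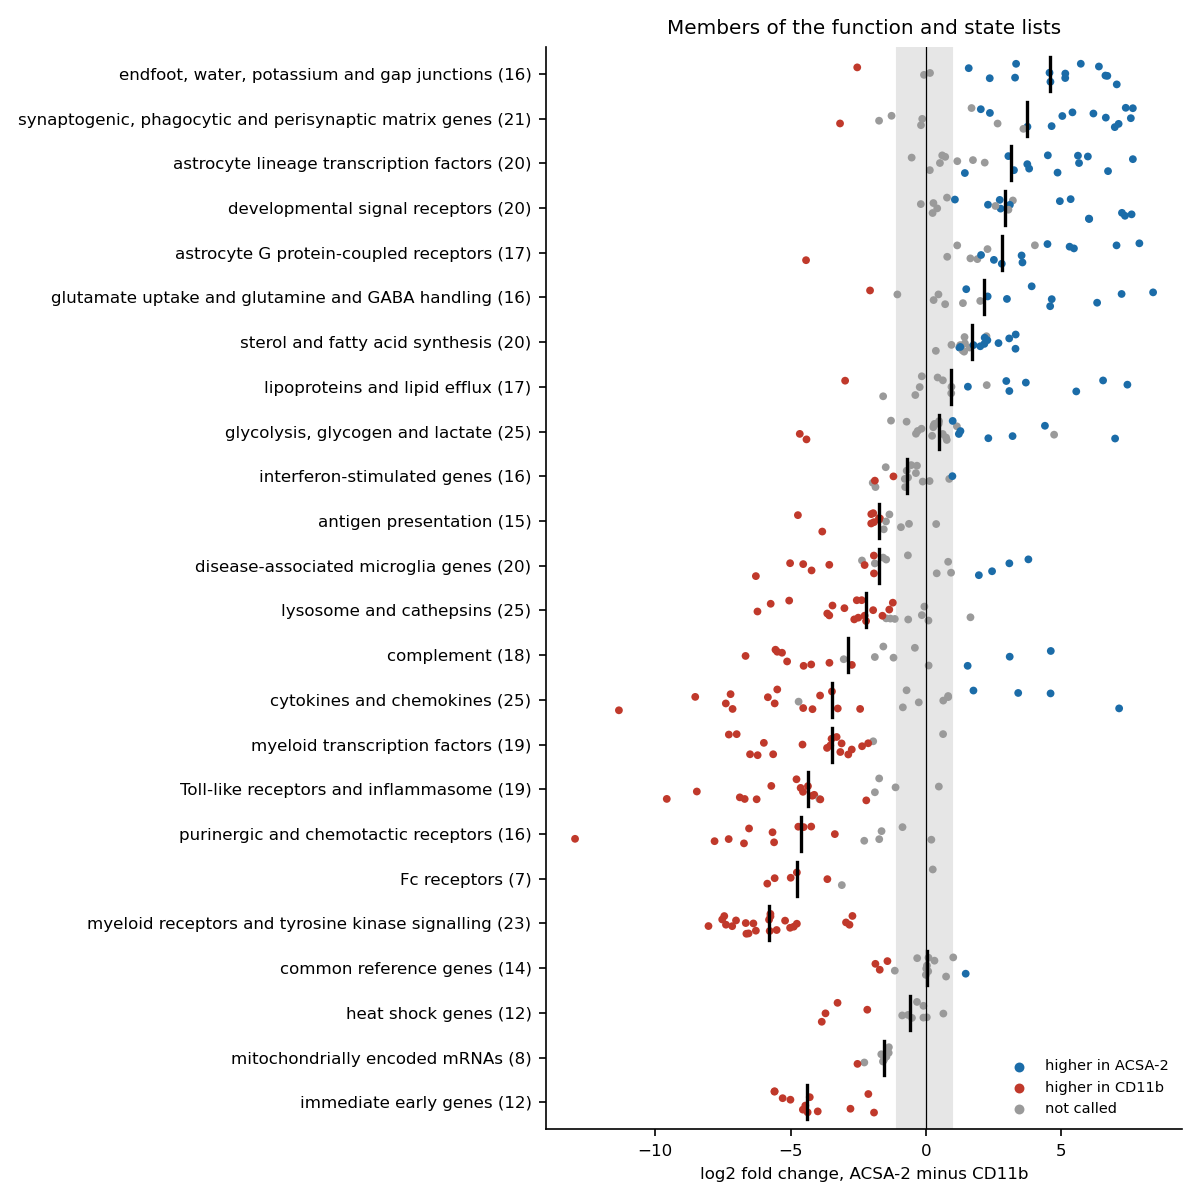
Each row is 1 function or state list and each point 1 member at its log2 fold change, ACSA-2 minus CD11b, in blue or red where called higher in ACSA-2 or CD11b and in grey where not called, with a bar at the list's median and a grey band over the quartiles of all tested genes (-1.07 to 0.95). The 9 lists of astrocyte function have medians from 0.48 to 4.58, and the lists of myeloid function have medians from -5.80 to -0.69.

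Microglial function was described by 11 lists of genes expected in CD11b, chosen in the same way. They share members with the markers, among them Csf1r, Trem2 and P2ry12. Counts of called members again stand against 12.7% of all tested genes higher in ACSA-2 and 13% higher in CD11b. The choice thus favoured negative medians, and that none of the lists had a positive median is no separate finding. Of 19 myeloid transcription factors, 17 were called higher in CD11b and 0 in ACSA-2, with a median of -3.49 (18 and 0 with DDBM319 alone, median -4.30). Spi1 (ENSMUSG00000002111, chr2:91082390-91115756), which encodes PU.1, was at 4.06, 2.72 and 7.73 CPM in ACSA-2 against 103, 213 and 765 CPM in CD11b (-6.22 ± 0.94, adjusted p = 0.00613). Ikzf1, a zinc finger factor of blood cell lineages, was at 0.234, 0.214 and 0.789 CPM against 16.9, 30.7 and 65.4 CPM (-6.50 ± 0.84, adjusted p = 0.00379). Irf8, an interferon regulatory factor that microglia require, was at 4.68, 8.22 and 11.4 CPM against 123, 284 and 806 CPM (-5.64 ± 0.83, adjusted p = 0.00565). All of these were highest in DDBM319 and none overlapped. Bhlhe41 was not called, at 37.1 to 55.9 CPM against 10.6, 19.7 and 59.6 CPM, and was about as high in ACSA-2 as in DDBM319.

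Since PU.1 binds a purine-rich core, promoters were searched for GAGGAAGT on both strands, in 250 bases before to 50 bases after the RefSeq gene start (RefSeq, GRCm38.p6). It was found in 64 of 638 promoters of genes at least 8-fold higher in CD11b (10%), in 7 of 529 promoters of genes at least 8-fold higher in ACSA-2 (1.32%), and in 357 of 12161 promoters of all tested genes (2.94%). The shorter core GAGGAA, which lies within it, was in 41.4, 27.6 and 26.9% of them. Promoters were matched for under 80% of each gene set (12161 of 16974 symbols), so these shares describe the matched promoters and no comparison between sets is drawn. The promoters of the CD11b set also held a median of 8 CpG, against 14 in the ACSA-2 set and 20 over all tested genes. The AP-1 motif TGANTCA was in 7.99% of the CD11b set, 6.62% of the ACSA-2 set and 5.10% of all. The SOX motif ACAAT was in 20.2, 23.8 and 20.6%. To show where the core lies, 4 promoters of genes higher in CD11b are printed from 200 bases before to 20 after the start on the gene's own strand, with the match in capitals. They are Ctss (chr3:95526586-95526805, plus strand), Vav1 (chr17:57278900-57279119, plus strand), Inpp5d (chr1:87620112-87620331, plus strand) and Itgam (chr7:128062440-128062659, plus strand), which encode cathepsin S, a guanine nucleotide exchange factor, the phosphatase SHIP1 and CD11b. Itgam holds the 6-letter core only, and 1 more match of it lies outside the printed stretch. Positions are counted from the start. The printed matches begin at -2 in Ctss, -11 in Vav1, -20 in Inpp5d, and -84 and -15 in Itgam. Those of Ctss and the second of Itgam are on the opposite strand.
Ctss: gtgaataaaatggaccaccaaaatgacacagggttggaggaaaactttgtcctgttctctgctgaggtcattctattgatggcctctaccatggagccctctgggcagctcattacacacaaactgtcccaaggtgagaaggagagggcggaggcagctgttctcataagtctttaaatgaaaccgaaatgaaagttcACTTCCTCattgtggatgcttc
Vav1: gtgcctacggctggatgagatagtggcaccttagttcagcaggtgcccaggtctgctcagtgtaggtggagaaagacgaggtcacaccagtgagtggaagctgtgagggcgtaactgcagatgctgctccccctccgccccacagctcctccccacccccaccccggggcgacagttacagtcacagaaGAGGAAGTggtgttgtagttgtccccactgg
Inpp5d: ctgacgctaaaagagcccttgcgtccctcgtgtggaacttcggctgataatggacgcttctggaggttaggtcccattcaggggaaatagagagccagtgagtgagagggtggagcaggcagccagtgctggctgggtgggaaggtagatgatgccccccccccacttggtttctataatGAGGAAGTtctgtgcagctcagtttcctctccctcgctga
Itgam: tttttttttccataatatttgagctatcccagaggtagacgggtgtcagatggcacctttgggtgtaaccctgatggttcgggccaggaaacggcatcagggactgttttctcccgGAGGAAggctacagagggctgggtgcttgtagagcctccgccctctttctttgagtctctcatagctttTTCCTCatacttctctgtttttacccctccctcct

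A match is a description of letters and was not tested as a binding site. The 4 genes were all higher in CD11b: Ctss at 73.9, 60.6 and 112 CPM against 1853, 4470 and 12120 CPM (-6.22 ± 0.85, adjusted p = 0.00439), Vav1 at 1.22, 0.672 and 7.07 CPM against 88.9, 170 and 584 CPM (-6.55 ± 1.26, adjusted p = 0.0127, 5 of 6 fits), and Inpp5d at 0.754, 5.01 and 3.73 CPM against 100, 167 and 520 CPM (-6.38 ± 1.01, adjusted p = 0.00695), whereas Itgam, given above, was fixed by the sort.

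All 23 genes of myeloid receptors and their tyrosine kinase signalling were called higher in CD11b, with a median of -5.80, and all 23 again with DDBM319 alone (median -6.95). Trem2, a lipid receptor of microglia, was at 26.0, 7.15 and 15.1 CPM against 326, 822 and 2608 CPM (-6.28 ± 0.99, adjusted p = 0.00696), and its adaptor Tyrobp at 31.4, 13.7 and 23.6 CPM against 221, 606 and 1401 CPM (-5.02 ± 0.77, adjusted p = 0.00649). Downstream kinases showed the same order of libraries. Syk was at 0.0520, 0.519 and 0.707 CPM against 25.2, 49.4 and 108 CPM (-7.16 ± 1.03, adjusted p = 0.00524), and Btk at 1.01, 0.0916 and 0.0544 CPM against 19.8, 48.9 and 139 CPM (-7.45 ± 1.36, adjusted p = 0.0107). The smallest change in the list was that of the Src-family kinase gene Lyn, at 60.3, 163 and 136 CPM against 259, 490 and 1613 CPM (-2.72 ± 0.75, adjusted p = 0.0387, 2 of 6 fits).

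Of 16 purinergic and chemotactic receptors and enzymes, 11 were called higher in CD11b and 0 in ACSA-2, with a median of -4.62 (14 and 0 with DDBM319 alone, median -5.58). P2ry13, an ADP receptor, was at 7.72, 3.57 and 13.3 CPM against 356, 675 and 2819 CPM (-7.29 ± 1.08, adjusted p = 0.00569). Entpd1, the ectoenzyme CD39 that removes ATP, was at 13.2, 15.8 and 19.1 CPM against 118, 281 and 866 CPM (-4.72 ± 0.78, adjusted p = 0.00785). The ion channel receptors were not called. P2rx7 was at 21.5 to 33.9 CPM against 29.6, 56.6 and 174 CPM (adjusted p = 0.0889), and P2rx4 at 39.2 to 70.8 CPM against 34.5, 72.7 and 191 CPM (adjusted p = 0.322). Their DDBM316 and DDBM317 libraries lay near the ACSA-2 level, and both were called higher in CD11b with DDBM319 alone (-2.76 and -1.84).

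Complement genes were called in both directions, though mostly in CD11b. Of 18 genes, 9 were called higher in CD11b and 3 in ACSA-2, with a median of -2.89 (9 and 3 with DDBM319 alone). The genes called higher in CD11b include Itgam, which was fixed by the sort. The genes of C1q, which starts the classical pathway, were higher in CD11b. C1qb (ENSMUSG00000036905, chr4:136880129-136886187) was at 141, 150 and 234 CPM against 2209, 4983 and 16480 CPM (-5.49 ± 0.87, adjusted p = 0.00695), with C1qa (-5.56 ± 0.90) and C1qc (-5.32 ± 0.86) alongside. The downstream components C4b and C3 were on the other side. C4b was at 87.4, 109 and 86.0 CPM in ACSA-2 against 3.21, 1.42 and 6.97 CPM in CD11b (4.61 ± 0.61, adjusted p = 0.00410), and C3 at 30.2, 59.0 and 60.6 CPM against 3.55, 5.27 and 8.78 CPM (3.09 ± 0.47, adjusted p = 0.00627), although the log2 fold change of C3 was -0.39 in the libraries from AAV-A2A animals. Serping1, the C1 inhibitor, was at 61.8 to 102.5 CPM against 24.1 to 30.8 CPM (1.54 ± 0.28, adjusted p = 0.0108, 4 of 6 fits). The receptors C3ar1, at 10.7, 2.38 and 16.4 CPM against 105, 172 and 401 CPM (-4.52 ± 0.85, adjusted p = 0.0121, 5 of 6 fits), and C5ar1 (4 of 6 fits) were called higher in CD11b.

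Sensors of immune complexes and microbes were mostly CD11b genes. Of 7 Fc receptor genes, 5 were called higher in CD11b and 0 in ACSA-2, with a median of -4.77 (5 and 0 with DDBM319 alone). Fcgr3 was at 35.1, 26.4 and 50 CPM against 313, 843 and 2404 CPM (-5.00 ± 0.82, adjusted p = 0.00785), whereas Fcgrt, the neonatal Fc receptor that also works in vessels, was at 335 to 390 CPM against 221 to 422 CPM and was not called. Of 19 Toll-like receptor and inflammasome genes, 14 were called higher in CD11b and 0 in ACSA-2, with a median of -4.36 (16 and 0 with DDBM319 alone, median -5.41). Tlr2 was at 9.96, 3.45 and 2.58 CPM against 54.6, 96.6 and 245 CPM (-4.63 ± 0.81, adjusted p = 0.00927), and the co-receptor Cd14 at 30.5 to 35.4 CPM against 268, 480 and 1089 CPM (-4.20 ± 0.57, adjusted p = 0.00429). Casp4, an inflammatory caspase, had 3 counts in the ACSA-2 libraries together and was at 16.8, 27.4 and 26.2 CPM in CD11b. Tlr3, the receptor for double-stranded RNA, was the member nearest to balance, at 46.3 to 60.1 CPM against 23.4, 27.2 and 59.9 CPM, and was not called.

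Antigen presentation and lysosomes differed by less than the receptors. Of 15 genes of antigen presentation, 9 were called higher in CD11b and 0 in ACSA-2, with a median of -1.73 (11 and 0 with DDBM319 alone). Cd74, the invariant chain, was at 126, 74.7 and 220 CPM against 389, 471 and 540 CPM (-1.73 ± 0.43, adjusted p = 0.0267, 3 of 6 fits). The class II gene H2-Ab1, at 27.9 to 106 CPM against 186 to 258 CPM (1 of 6 fits), and Cd74 were both within a narrow range over the CD11b libraries, unlike the microglial markers. The peptide loading genes H2-DMa (3 of 6 fits) and H2-DMb1 had log2 fold changes of -4.73 ± 1.18 and -3.83 ± 0.60. Of 25 lysosomal genes, 17 were called higher in CD11b and 0 in ACSA-2, with a median of -2.21 (22 and 0 with DDBM319 alone, median -3.09). The macrophage lysosomal protein gene Cd68 was at 21.2 to 37.0 CPM against 245, 398 and 2128 CPM (-5.05 ± 0.93, adjusted p = 0.0112, 4 of 6 fits). The general lysosomal membrane gene Lamp1 was shared, at 1017 to 1114 CPM against 706, 841 and 1820 CPM, and was not called.

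Of 25 cytokines and chemokines, 14 were called higher in CD11b and 4 in ACSA-2, with a median of -3.47 (14 and 6 with DDBM319 alone). Il1b was at 1.33, 1.89 and 3.32 CPM against 86.1, 145 and 144 CPM (-5.84 ± 0.48, adjusted p = 0.000778), and Il1a at 0.0260, 1.89 and 0.544 CPM against 199, 407 and 292 CPM (-8.52 ± 1.27, adjusted p = 0.00596). The chemokine Ccl4 was at 2.08, 2.17 and 1.66 CPM against 156, 426 and 299 CPM (-7.22 ± 0.50, adjusted p = 0.000463). None of these was highest in DDBM319, in contrast to the microglial markers. Il6 had 0 counts in ACSA-2 and was at 2.14, 9.61 and 12.5 CPM in CD11b, at least 96.6-fold higher than a floor of 3 counts per library. The 4 members called higher in ACSA-2 were Cxcl14 (430 to 541 CPM against 2.37 to 3.97 CPM, 7.13 ± 0.37), the alarmin Il33 (71.4 to 86.5 against 1.36 to 5.38 CPM, 4.6 ± 0.54), Il18 (198 to 472 against 18.1 to 45.0 CPM, 3.40 ± 0.53) and Il34, a ligand of CSF1R (47.6 to 63.1 against 9.47 to 28.1 CPM, 1.75 ± 0.46, 1 of 6 fits).

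Genes known as a disease-associated signature of microglia did not all mark the CD11b fraction in these control animals. Of 20 genes, 8 were called higher in CD11b and 4 in ACSA-2, with a median of -1.74 (11 and 5 with DDBM319 alone). The 4 were Apoe, the receptor Axl (441, 470 and 515 CPM against 28.7, 25.7 and 49.5 CPM, 3.78 ± 0.35, adjusted p = 0.00110), the secreted phosphoprotein Spp1 (377, 233 and 200 CPM against 32.9, 25.7 and 90.8 CPM, 2.44 ± 0.55, adjusted p = 0.0208, 2 of 6 fits) and Gpnmb (22.0, 22.1 and 23.6 CPM against 7.56, 2.01 and 7.91 CPM, 1.95 ± 0.54, adjusted p = 0.0391, 2 of 6 fits). In the AAV-A2A libraries Apoe was called higher in ACSA-2 again (3.60), whereas Axl (0.40) and Spp1 (1.39) were not called. Itgax, the integrin of dendritic cells, was at 1.40, 0 and 0.490 CPM against 0.993, 1.24 and 4.84 CPM and was not called. Interferon-stimulated genes gave few calls, with 2 of 16 higher in CD11b (Irf7, 2 of 6 fits, and Bst2, 3 of 6 fits), 1 higher in ACSA-2 (Ifitm3, 1 of 6 fits) and a median of -0.69 (2 and 1 with DDBM319 alone, median -0.72), which is near the share of all tested genes.

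Immediate early genes, which cells induce within minutes of stimulation, were uniformly higher in CD11b. All 12 were called higher there, with a median of -4.41, and 11 of 12 with DDBM319 alone (median -4.72). Fos was at 192, 166 and 220 CPM in ACSA-2 against 2683, 4948 and 5065 CPM in CD11b (-4.46 ± 0.41, adjusted p = 0.00107), and Atf3, a stress-induced factor, at 20.4, 12.1 and 29.4 CPM against 617, 1439 and 927 CPM (-5.59 ± 0.54, adjusted p = 0.00138). The member not called with DDBM319 alone was Nr4a1, at 28.7, 32.7 and 13.1 CPM against 113, 152 and 61.5 CPM (2 of 6 fits). The summed level of the 12 genes was 15090, 26720 and 26830 CPM in the CD11b libraries, a far smaller range than that of the microglial markers, and 1222 to 1422 CPM in ACSA-2. Of 12 heat shock genes, 4 were called higher in CD11b and 0 in ACSA-2, with a median of -0.59 (4 and 1 with DDBM319 alone, median 0.24). Of these, Hspa1b was at 11.9, 9.41 and 6.88 CPM against 116, 214 and 39.1 CPM (-3.71 ± 0.64, adjusted p = 0.00902), and Hspa5, a chaperone of the endoplasmic reticulum, at 777 to 1056 CPM against 4103, 5331 and 3131 CPM (-2.17 ± 0.35, adjusted p = 0.00728, 5 of 6 fits). The CD11b cells were isolated after the ACSA-2 cells, and time on the columns and cell type cannot be told apart.

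Among 14 common reference genes, 10 were not called and the median was 0.02 (9 and -0.03 with DDBM319 alone), but Actb was higher in CD11b (793 to 1051 CPM against 1705, 1990 and 5074 CPM, -1.71 ± 0.49, adjusted p = 0.0433, 2 of 6 fits), as was Hprt, and Polr2a was higher in ACSA-2 (1.47 ± 0.34, adjusted p = 0.0225, 1 of 6 fits). Of 8 mitochondrially encoded mRNAs, mt-Nd5 was called higher in CD11b (1 of 6 fits), with a median of -1.57 for the 8. Their summed level was 14620 and 10560 CPM in DDBM316 and DDBM317, 2400 CPM in DDBM319 and 2065 to 3643 CPM in ACSA-2, and with DDBM319 alone none was called and the median was 0.45.

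Markers of other cell types were present in both fractions. Counts of called markers, here and in the lists below, stand against 12.7 and 13% of all tested genes higher in ACSA-2 and CD11b. Of 8 mural cell markers, 6 were called higher in ACSA-2, with a median of 2.15 (5 with DDBM319 alone). Vtn, the vitronectin gene of pericytes, was at 3957, 4107 and 4135 CPM against 474, 488 and 1527 CPM (2.29 ± 0.54, adjusted p = 0.0232, 2 of 6 fits), and the smooth muscle gene Acta2 at 84.0 to 148 CPM against 115 to 148 CPM was not called. Of 10 endothelial markers, 2 were called higher in CD11b (Ly6c1, 1 of 6 fits, and Pecam1), with a median of -0.64 (1 in each direction with DDBM319 alone, median 0.28), and their sum was 2305 to 2517 CPM in ACSA-2 and 5297, 6552 and 2050 CPM in CD11b. Of 8 ependymal markers, 4 were called higher in ACSA-2 (8 with DDBM319 alone), and Ccdc153 was at 338, 499 and 373 CPM against 41.0, 100 and 57.2 CPM (2.61 ± 0.40, adjusted p = 0.00646). Border macrophage markers summed to 109 to 146 CPM in ACSA-2 and 139, 194 and 693 CPM in CD11b. Only Stab1 of these 10 was called over all libraries (3 of 6 fits), with a median of -0.64, against 5 called higher in CD11b and a median of -1.61 with DDBM319 alone. Mrc1 was at 11.5 to 15.7 CPM against 10.1, 11.9 and 40.8 CPM.

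Blood cell markers were divided into 3 lists. Of 9 monocyte and neutrophil genes, 5 were called higher in CD11b and 0 in ACSA-2, with a median of -6.45 (6 and 0 with DDBM319 alone, median -7.61), and each of the 9 was highest in DDBM319. S100a8, a neutrophil calcium-binding protein, was at 0.390, 0 and 0.571 CPM against 20.7, 23.6 and 77.8 CPM (-6.96 ± 1.22, adjusted p = 0.00938). Retnlg had 0 counts in ACSA-2 and was at 5.40, 7.63 and 35.4 CPM in CD11b, at least 193-fold higher than a floor of 3 counts per library. Of 5 lymphocyte genes tested, 2 were called higher in CD11b (Cd79b, 4 of 6 fits, and Ms4a1, 2 of 6 fits), 1 with DDBM319 alone and 0 in some fits that left out 1 library, and their sum with the untested members was 75.7 CPM at most. None of 6 erythrocyte genes was called by edgeR over all libraries, with a median of -1.42 (0.11 with DDBM319 alone). Without DDBM319, 5 were called higher in CD11b. Their sum was 1000 to 1463 CPM in ACSA-2 and 2428, 6103 and 1038 CPM in CD11b.

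Markers of the oligodendrocyte lineage were present in ACSA-2, with a summed level of 707 to 796 CPM for 10 oligodendrocyte markers and of 384 to 590 CPM for 7 precursor markers. The precursor genes Olig1 (166, 245 and 204 CPM against 7.03, 12.1 and 11.1 CPM, 4.35 ± 0.33, adjusted p = 0.000583), Olig2 and Cspg4 were called higher in ACSA-2, and 3 were so with DDBM319 alone (median 1.30 over all libraries and 2.03 alone). The precursor gene Pdgfra was at 4.24 to 7.67 CPM against 4.53 to 16.7 CPM and was not called, and Gpr17 had 0 counts in ACSA-2 and 0.506 to 2.82 CPM in CD11b (1 of 6 fits). Few myelin genes were called. Of 10 tested, 1 was higher in ACSA-2 (Cnp, 1 of 6 fits) and 2 in CD11b (Mag, and Mal, 1 of 6 fits). With 10 genes, these counts do not set the list apart from the 12.7 and 13% of all tested genes. The median was -0.71 over all libraries and 0.66 with DDBM319 alone. Mag was at 0, 0.794 and 0.735 CPM against 7.81, 20.5 and 67.3 CPM (-5.97 ± 1.43, adjusted p = 0.0244, 3 of 6 fits). It followed the order of the microglial markers rather than that of Mbp, at 12.9 to 37.1 CPM against 64.4, 83.5 and 38.9 CPM. Neuronal genes summed to 105 to 168 CPM in ACSA-2 and 126 to 270 CPM in CD11b. Of 11 tested, 1 was called in each direction, which is 9.09%, against 12.7 and 13% of all tested genes. Their median was -0.10 (1.64 with DDBM319 alone). Of 8 neural progenitor genes, 4 were called higher in ACSA-2, against 1 with DDBM319 alone.

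**Figure D4:**
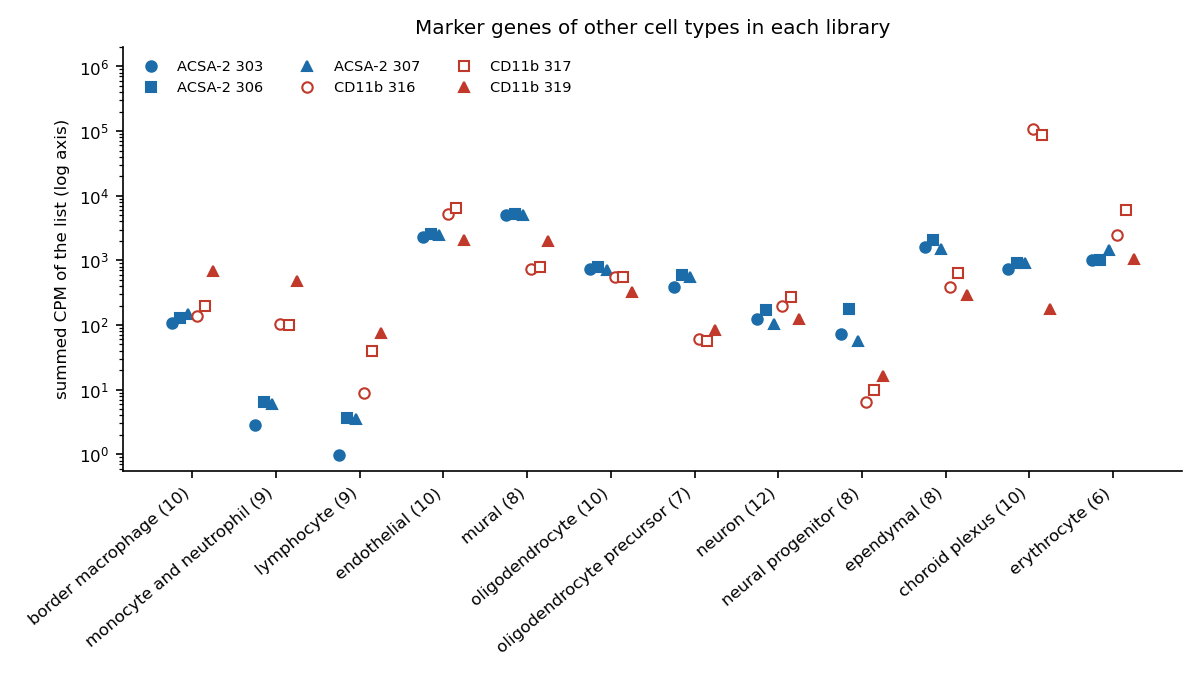
Summed CPM, on a log axis, of the marker genes of each other cell type in the 6 libraries, with 1 point per library. The choroid plexus sum is 108500 and 88500 CPM in DDBM316 and DDBM317 and 174 CPM in DDBM319, while the mural sum is 5093 to 5148 CPM in ACSA-2 and 730 to 1977 CPM in CD11b.

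For 20 ligand and receptor pairs, the fraction that held each partner was compared. In 3 pairs the ligand gene was called higher in ACSA-2 and the receptor gene in CD11b, namely Il34 and Csf1r, C3 and C3ar1, and Apoe and Trem2. The call of Il34 held in 1 of 6 fits and not with DDBM319 alone (0.93), and that of C3 was not found in the AAV-A2A libraries (-0.39). In 2 the direction was the converse. Pdgfb, at 2.32 to 8.32 CPM against 42.3, 53.3 and 107 CPM (-3.58 ± 0.60, adjusted p = 0.00837), was paired with Pdgfrb, higher in ACSA-2 as a gene of mural cells (110, 156 and 155 CPM against 22.6, 18.3 and 59.0 CPM, 1 of 6 fits). Edn1, the endothelin gene (2 of 6 fits), was paired with the astrocytic receptor gene Ednrb (232, 242 and 263 CPM against 36.2, 15.8 and 11.9 CPM). Both partners were called in the same fraction in 2 pairs. Ptn and Ptprz1 were higher in ACSA-2, with Ptn at 3625, 2759 and 3390 CPM against 151, 191 and 234 CPM (4.08 ± 0.35), and Tgfb1 and Tgfbr1 were higher in CD11b, with Tgfb1 at 4.42 to 6.39 CPM against 28.1, 51.8 and 164 CPM (5 of 6 fits). The ligand of CX3CR1 did not divide as its receptor did. Cx3cl1 was at 91.1, 140 and 124 CPM against 112, 97.7 and 18.9 CPM and was not called, whereas Cx3cr1 was at 105, 40.3 and 136 CPM against 1302, 2470 and 9956 CPM (-5.61 ± 0.99, adjusted p = 0.00954, 5 of 6 fits). In 3 pairs neither partner was called. The pairs record where transcripts were found and were not tested as signalling.

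**Figure D5:**
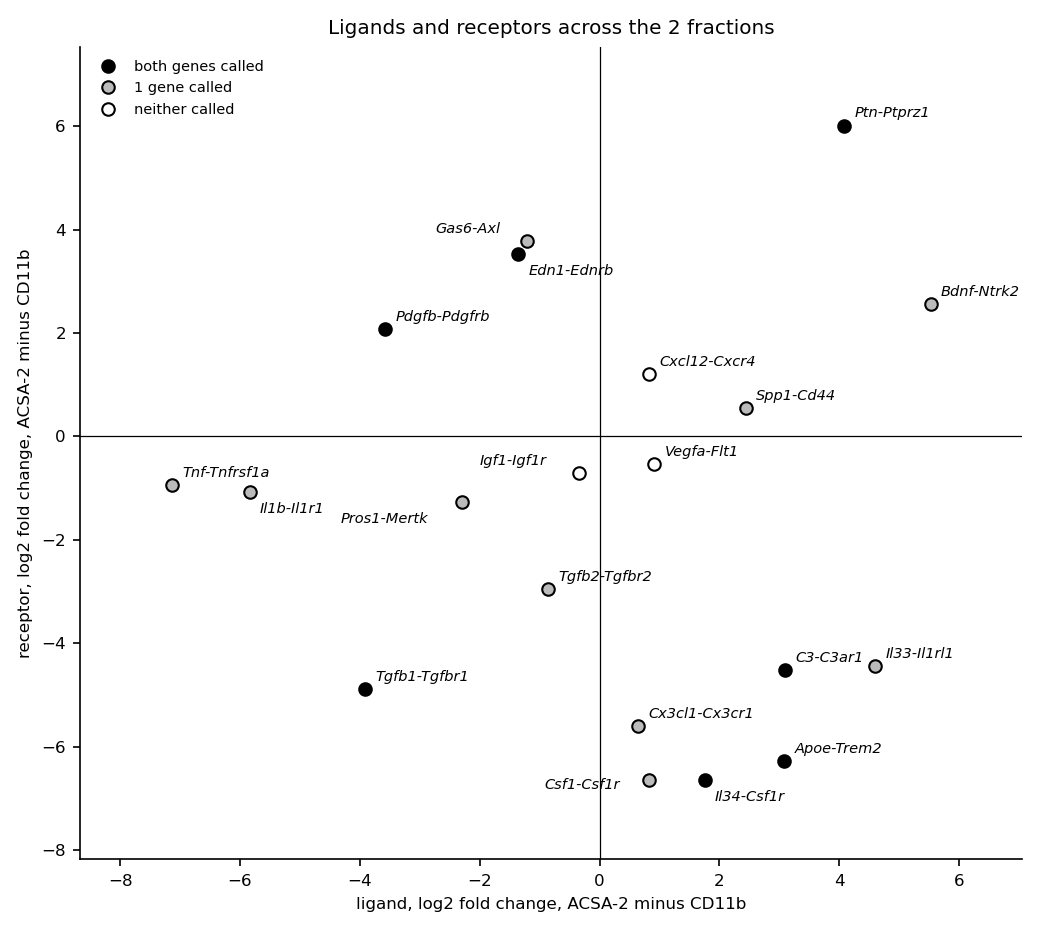
Each point is 1 of the 20 pairs, with the log2 fold change of the ligand gene on the x axis and of the receptor gene on the y axis, both ACSA-2 minus CD11b, and filled, grey or open points for both, 1 or neither partner called. The 3 pairs in the lower right with both partners called are Il34 and Csf1r, C3 and C3ar1, and Apoe and Trem2.

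The other 6 libraries of the series, from animals that received AAV-A2A, gave the same comparison in samples that the calls above did not use. There 3562 genes were called higher in ACSA-2 and 4193 higher in CD11b. Of the genes at least 8-fold higher in ACSA-2 with AAV-GFP, 602 were so again, which is 78.2% of the AAV-GFP list and 40.9% of the AAV-A2A list. For CD11b 684 were shared, 72.0 and 44.9% of the lists. Of called genes, 16 of the 2162 higher in ACSA-2 and 1 of the 2215 higher in CD11b were called the opposite way. All 20 astrocyte markers were called higher in ACSA-2 and all 20 microglial markers in CD11b, with Atp1b2 and Itgam, fixed by the sort, among them. All 23 myeloid receptor and kinase genes and all 12 immediate early genes were again called higher in CD11b. Other lists gave fewer calls or changed direction. The developmental signal receptors had 9 called higher in ACSA-2 and 3 in CD11b in place of 12 and 0, the mural markers 3 in place of 6, the complement genes 1 in place of 3 higher in ACSA-2, and the erythrocyte genes 4 higher in ACSA-2 in place of 0.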

How the data were processed

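Polyadenylated RNA of the sorted fractions was reverse transcribed and amplified with SMART-Seq v4, and libraries were made by tagmentation with Nextera XT, which does not mark strand, so reads of antisense partners cannot be told apart. Per the submitters' processing notes, the authors used bcl2fastq, cutadapt 1.10, STAR 2.5.3 and HTSeq 0.6.1p1 with mm10, and deposited 1 table of raw read counts per gene for each fraction, with 27866 identifiers for ACSA-2 and 30359 for CD11b. The deposited counts are not normalized, each table omits genes at 0 in all of its libraries, and 25442 identifiers were in both tables. The number of unused value columns was 0. Amplified reads carry no molecular identifiers, so bounds that rest on 3 counts cover counting error only.

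The counts of the 6 AAV-GFP libraries were tested in R 4.3.3 with edgeR 4.0.16 (TMM, filterByExpr, robust quasi-likelihood fit), with no covariate, and p-values were adjusted by the Benjamini-Hochberg method over 16980 genes. The biological coefficient of variation was 0.611. A gene was called at an adjusted p under 0.05 and an absolute log2 fold change over 0.32, and the larger threshold was a log2 fold change of 3, which is 8-fold. Levels are TMM-scaled CPM, divided by exon length where genes are compared with each other. Symbols, positions and exon overlap came from GENCODE vM21 for GRCm38, in which 25399 identifiers were found, and promoters from RefSeq. The fit was tested on simulated data.

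The members and gene lists were chosen with earlier results of these data known. Genes were named as members of these lists and of the ligand and receptor pairs. Also named were the 15 largest changes in each direction among called genes with no overlap and a mean of at least 50 CPM in the higher fraction, the 10 most abundant genes of each fraction, and the 10 smallest adjusted p-values in each direction. Some list members enter the counts and are not reported by name here. Other examples within a list were chosen after their values were seen. Alternatives were DESeq2 1.42.0, limma-voom (limma 3.58.1), other scalings and filters, all 12 libraries, the AAV-A2A libraries, and 1 library left out. The fit with DDBM319 as the only CD11b library was added after seeing the data. Tables and plots were made with Python 3.11.15, pandas 2.3.3 and matplotlib 3.10.9.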

Additional observations from a re-analysis of the deposited data

Results flagged for a closer look

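Genes that stood in the table of 1 fraction only were left out of the test above, and those with a mean of at least 5 CPM over the 3 AAV-GFP libraries are given here as values. Unlike elsewhere, CPM here is taken over the raw library total, without TMM scaling. In the ACSA-2 table they were Chrna3 (5.73 CPM), Rbp3 (5.71 CPM) and A330076C08Rik (5.10 CPM). Chrna3, a nicotinic receptor subunit, was at 0, 17.0 and 0.241 CPM by library, and Rbp3, the retinoid-binding protein of photoreceptors, at 0, 17.1 and 0 CPM, so that both were signals of DDBM306.

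In the CD11b table the most abundant was Ngp, a granule protein of neutrophils, with a mean of 66.1 CPM and 56.5, 29.3 and 112 CPM by library. Fcrl1, an Fc receptor-like protein of B cells, followed with 45.9 CPM (17.6, 30.8 and 89.3 CPM). Both were present in each CD11b library and highest in DDBM319. The immunoglobulin heavy chain genes Igha (14.5 CPM) and Ighg1 (5.28 CPM) were at 0 in DDBM317 and DDBM319 and were found in DDBM316 only. The remaining genes were 4933429O19Rik (20.1 CPM), Tmprss11a (19.2 CPM), Ceacam16 (10.6 CPM), Slamf1 (8.51 CPM), Dsp (6.10 CPM), Duoxa1 (5.79 CPM), Gm853 (5.25 CPM), Prss34 (5.13 CPM) and Ren1 (5.12 CPM). No level is given for any of these genes in the other fraction, since its table does not list them.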

How the results depend on the processing

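No paired analysis was possible because the fractions share no library number. With 3 libraries a fraction, the number of calls depended on the libraries. With 1 library left out, 1036 to 2861 genes were called higher in ACSA-2 and 846 to 2975 in CD11b, and the counts were highest without DDBM319. At the 8-fold threshold they were 540 to 801 and 560 to 1176, with the CD11b count at 560, 579 and 584 without DDBM303, DDBM306 and DDBM317. The function lists of CD11b kept 72 to 125 called members against 120, with 72 and 76 without DDBM303 and DDBM306. The median carry-over of microglial markers ranged from 1.26% without DDBM316 to 4.24% without DDBM319, and the share of promoters with the 8-letter PU.1 core ranged from 0.501 to 1.78% in the ACSA-2 set and from 7.72 to 12.1% in the CD11b set. DESeq2, limma-voom, the RLE and library-total scalings, the test of all genes with a count, zeros for genes of 1 table and the fit to all 12 libraries left each count within 1.5 times that reported, and none of them turned the sign of a called named gene. DESeq2 called 3038 and 3287 genes. A minimum of 10 counts in every library, which drops genes near 0 in 1 fraction, left 466 and 444 genes past 8-fold.

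With DDBM319 as the only CD11b library, 1465 genes were past 8-fold in ACSA-2, and the carry-over medians were 0.981% for astrocyte and 0.782% for microglial markers. Among named genes called in either fit, signs turned for Ttr (2.61), Enpp2 (1.19), Cst3 (-0.78) and Hes1 (1.85). They also turned for the medians of the choroid plexus (2.17), oligodendrocyte (0.66), mitochondrial (0.45), endothelial (0.28), neuron (1.64), erythrocyte (0.11), heat shock (0.24) and reference gene (-0.03) lists. The AAV-A2A libraries gave 3562 and 4193 called genes, 1472 and 1525 past 8-fold, and a PU.1 core share of 7.25% in the CD11b set. Among named genes called in either fit, the sign turned there for C3 (-0.39), Cspg4 (-0.50), Hes1 (2.16), Ly6c1 (0.63), Notch1 (-0.46), Pdgfrb (-0.79), Polr2a (-1.91), Smo (-1.53) and mt-Nd5 (0.45), and for the medians of the oligodendrocyte (0.94), oligodendrocyte precursor (-0.50), erythrocyte (2.60), mitochondrial (1.34), endothelial (0.22), neuron (0.60), interferon (0.20) and reference gene (-0.06) lists. Of 166 named genes called with AAV-GFP, 12 kept their sign in the AAV-A2A libraries and lost their call. The median of the border macrophage list ranged from -0.96 to 0.42 with 1 library left out. The cause of these changes was not tested.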

Other observations

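Gene families taken by symbol after their values were seen add to the lists, and over all tested genes 12.7% were higher in ACSA-2 and 13% in CD11b. Of 66 cadherin and protocadherin genes, which encode calcium-dependent adhesion proteins, 25 were called higher in ACSA-2 and 1 in CD11b, which is 37.9 and 1.52% of the family, with a median log2 fold change of 2.37. Of 65 potassium channel genes, 19 were called higher in ACSA-2 and 9 in CD11b. Of 46 genes of complex I subunits and assembly (Nduf), 13 were called higher in ACSA-2 and 0 in CD11b, with a median of 0.89. Interleukin receptor genes lay on the CD11b side, with 15 of 29 called there (51.7%), 1 in ACSA-2 and a median of -2.26. Of 46 tripartite motif genes 13 were higher in CD11b and 3 in ACSA-2, and of 38 ABC transporter genes 9 and 1. Solute carriers, with 45 of 271 higher in ACSA-2 and 44 in CD11b, which is 16.6 and 16.2%, lay near these shares. Cytosolic ribosomal protein genes gave 5 calls in CD11b and 0 in ACSA-2 among 80 (6.25%). Long intergenic RNAs had 78 of 545 higher in ACSA-2 and 49 in CD11b (14.3 and 8.99%), again near the shares of all genes.

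Genes known from the retina were found in DDBM306, where they were noticed after their values were seen. Crx, a photoreceptor homeobox gene, was at 0, 7.95 and 0 CPM in the ACSA-2 libraries, and Cabp5, a calcium-binding protein of retinal interneurons, at 0, 14.5 and 0 CPM. The values of Crx and Cabp5 are over raw library totals, whereas Neurod4, at 12.4, 132 and 16.0 CPM, is TMM-scaled. These values belong to 1 of the 3 ACSA-2 libraries, and what they contribute to other results was not tested.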
